A study of Mus musculus with 12 samples.

Results

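Glycolysis and glucose uptake were followed through 10 genes in T cells of the mouse brain: the transporters Slc2a1 and Slc2a3 and the enzymes Hk2, Pfkp, Aldoa, Tpi1, Gapdh, Pgk1, Pkm and Ldha. The list was drawn up with earlier results of these data known, its genes were looked up by symbol among the 32285 genes of the count matrix, and all 10 were found. RefSeq (GRCm38.p6) places them at chr4:119108745-119137330 (Slc2a1), chr6:122727809-122802363 (Slc2a3), chr6:82725025-82774454 (Hk2), chr13:6579874-6649060 (Pfkp), chr7:126795234-126800994 (Aldoa), chr6:124810586-124814158 (Tpi1), chr6:125161852-125166467 (Gapdh), chrX:106187100-106203699 (Pgk1), chr9:59656576-59679372 (Pkm) and chr7:46842274-46855627 (Ldha). T cells were sorted as CD4+, CD8+ or γδ+ from half-brains of female mice aged 9 months and read as 6 pools, each with a 5′ single-cell RNA library and a T cell receptor library. PS-5X mice carried both the 5XFAD amyloid transgenes and the PS19 transgene (1 pool of 4 mice), and 5XFAD mice carried the amyloid transgenes alone (2 pools, 5XFAD-1 of 4 mice and 5XFAD-2 of 3). PS19 mice carried mutant human tau under the mouse prion protein promoter (1 pool of 4), and WT littermates carried neither (2 pools, WT-1 of 10 mice and WT-2 of 8). All transgenes were hemizygous, the colony came from crossing the B6C3F1/J PS19 line with the C57BL6 congenic 5XFAD line, and every value of a pool is an average over its mice.

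Glycolysis splits glucose into pyruvate in the cytosol and yields ATP without oxygen. Resting naive T cells take up little glucose and burn mostly pyruvate and fatty acids in mitochondria, while activated T cells raise glucose uptake and lactate production even when oxygen is present. Slc2a1 and Slc2a3 encode the glucose transporters GLUT1 and GLUT3. Hk2 encodes the inducible hexokinase that traps glucose as glucose-6-phosphate, and Pfkp the platelet-type phosphofructokinase of the first committed step. Aldoa splits fructose bisphosphate, Tpi1 interconverts the resulting trioses, and Gapdh, Pgk1 and Pkm carry out the steps that yield NADH and ATP. Ldha turns pyruvate into lactate. Several of these genes are textbook targets of HIF-1, the transcription factor stabilised by low oxygen, and of Myc.

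The core letters of the HIF-1 binding element, ACGTG on either strand, were looked for in the 250 bases before each RefSeq gene start (GRCm38.p6). Windows of 4 genes are printed, a choice made with the results known and not by the size of the differences. Hk2, Ldha and Pgk1 were each called in some of the comparisons that follow, and Slc2a1 is the main glucose transporter of activated T cells. The 4 windows are printed 5′ to 3′ on the gene's own strand, with each match in capitals. They lie at chr6:82774455-82774704 on the minus strand for Hk2, and on the plus strand at chr7:46845554-46845803 for Ldha, chrX:106186850-106187099 for Pgk1 and chr4:119108495-119108744 for Slc2a1.
Hk2: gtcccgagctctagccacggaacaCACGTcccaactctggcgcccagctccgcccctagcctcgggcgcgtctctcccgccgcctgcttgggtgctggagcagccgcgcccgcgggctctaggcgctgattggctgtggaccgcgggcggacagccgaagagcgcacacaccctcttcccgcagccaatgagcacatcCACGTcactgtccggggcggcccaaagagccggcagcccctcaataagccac
Ldha: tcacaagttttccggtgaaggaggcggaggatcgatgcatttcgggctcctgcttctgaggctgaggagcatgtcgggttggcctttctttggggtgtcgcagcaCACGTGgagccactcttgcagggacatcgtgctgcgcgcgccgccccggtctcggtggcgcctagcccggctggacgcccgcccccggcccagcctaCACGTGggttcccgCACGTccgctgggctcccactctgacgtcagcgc
Pgk1: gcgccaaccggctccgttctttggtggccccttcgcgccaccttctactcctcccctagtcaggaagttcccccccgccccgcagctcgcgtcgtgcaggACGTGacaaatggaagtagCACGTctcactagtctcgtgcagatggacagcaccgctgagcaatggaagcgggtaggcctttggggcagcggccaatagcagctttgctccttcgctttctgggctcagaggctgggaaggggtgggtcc
Slc2a1: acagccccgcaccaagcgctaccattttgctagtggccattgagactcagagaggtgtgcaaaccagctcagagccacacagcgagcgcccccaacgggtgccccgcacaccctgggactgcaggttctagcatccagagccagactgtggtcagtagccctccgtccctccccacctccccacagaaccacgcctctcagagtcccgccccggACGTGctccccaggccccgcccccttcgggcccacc
Hk2 held 2 matches, both on the opposite strand, with their first bases 226 and 52 bases before the start. Ldha held 5 in the printed window, with both of its CACGTG stretches read once on each strand. CACGTG stood in 6.02% of all 32851 windows. The printed Ldha window lies inside the Ldha interval given above, and a second Ldha window, at chr7:46846832-46847081, held 0 matches. Pgk1 held 2 and Slc2a1 held 1, 36 bases before the start. The windows of Pfkp, Tpi1 and Gapdh, which are not printed, held 0. Each of these, Pfkp, Tpi1 and Gapdh, was called as higher in non-naive than in naive cells, in both CD8 and CD4 cells, in the comparisons that follow. Of the 13 windows of the 9 genes with an entry, 7 (53.8%) held the motif, against 5444 (16.6%) of all windows, and 6 of the 9 genes had it in at least 1 window (66.7%, against 18.5% of 27025 genes). The genes were chosen by hand with textbook HIF-1 targets among them, and the windows were not matched for base composition. These shares are therefore a description and not a measure of enrichment. The windows of a gene can overlap: the matches in both Aldoa windows that held one are the same site. A match is a description of the letters and does not show that a factor binds there, and Slc2a3 had no entry.

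After filtering, 830 (WT-1) to 5897 (PS-5X) cells remained per pool, with a median of 5399 to 6824 unique molecular identifiers (UMIs, each standing for 1 captured RNA) per cell. The classes named from markers held 11387 CD8, 3288 CD4 and 835 γδ T cells, and the γδ class was 1 cluster whose leading genes included Trdv4, Tcrg-V6, Cd163l1 and Il17a, genes of IL-17-producing γδ cells. UMIs of each class were summed per pool, and levels are given as CPM, the UMIs of a gene relative to all UMIs of the sum, scaled by TMM, a library-size correction. In such sums, fewer expressing cells and less RNA per cell cannot be told apart. Pools share receptors and barcodes: in WT-1, 168 of 554 cells with a receptor of both chains had one that was also found in another pool, in 5XFAD-1 542 of 1834, in PS19 168 of 1723, in PS-5X 176 of 4127, and in the separately sequenced WT-2 and 5XFAD-2 none; 20 to 89 barcode sequences per pool recurred in another. A common sequencing run held the other 4 pools. Processed pseudogenes or close copies exist for Gapdh, Aldoa, Tpi1, Pgk1, Pkm and Ldha, so reads could be shared between them, and the Aldoa symbol had a second row with 24 UMIs that was not added to the 57096 of the main row.

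Differences between cell states or lineages were tested within pools, as 2 sums per pool with the pool as a block, by edgeR's quasi-likelihood test with Benjamini-Hochberg adjustment over all genes tested; a gene was called at an adjusted p under 0.05. Log2 differences are given with their SE. In these comparisons, p-values measure only how steady the within-pool difference is from pool to pool. For amyloid and tau, tested between pools, they measure only the spread between pools. Neither measures a spread between mice.

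γδ T cells were compared with CD8 T cells, and of the 10 genes Hk2 differed most between them. Cells were assigned here by their own Cd8b1, Cd4 or Trdc UMIs and receptor contigs. Of the 10 genes, 7 were higher in γδ cells and 0 lower (40.5% of 10353 genes tested were called, in either direction), with a median log2 difference of 0.326 for the 10, against -0.0171 for all genes. Hk2 stood at 45.4, 90.3, 99.9, 32.5, 61.3 and 65.2 CPM in γδ cells of PS-5X, 5XFAD-1, 5XFAD-2, PS19, WT-1 and WT-2, against 3.02, 3.43, 4.19, 3.21, 4.54 and 3.56 CPM in CD8 cells of the same pools. The ranges were far apart in all 6 pools, and among γδ cells 5XFAD-2 was highest and PS19 lowest. The log2 difference was 4.20 ± 0.18 (adjusted p = 1.85e-12, edgeR), on 16 to 90 Hk2 UMIs per γδ sum and 15 to 63 per CD8 sum.

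Downstream of hexokinase the differences were smaller. Pkm, pyruvate kinase, had 464, 575, 562, 471, 464 and 430 CPM in γδ cells of the same 6 pools, against 324, 329, 315, 319, 302 and 312 CPM in CD8 cells. The γδ values all lay above the CD8 values (log2 difference 0.69 ± 0.07, adjusted p = 1.56e-07, edgeR). Tpi1 averaged 75.4 ± 8.43 CPM in γδ and 51.1 ± 3.12 CPM in CD8 cells (SD, n = 6 pools each; 0.60 ± 0.10), and Pfkp 195 ± 25.6 and 136 ± 8.17 CPM (0.55 ± 0.08), again without overlap and with adjusted p of 8.48e-05 and 3.57e-05 (edgeR). Aldoa (0.34 ± 0.06) and Ldha (0.31 ± 0.06) were higher in γδ cells in 6 of 6 pools, with adjusted p of 2.94e-04 and 5.06e-04 (edgeR). Pgk1 was higher in 5 of 6 pools (0.23 ± 0.08, adjusted p = 0.0292, edgeR), and this call was lost with DESeq2, with a filter of 1 UMI, with doublets kept, and without 5XFAD-1, 5XFAD-2, PS-5X, WT-1 or WT-2.

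The transporters and Gapdh did not follow. Slc2a1 averaged 42.3 ± 12.3 CPM in γδ and 46.5 ± 3.48 CPM in CD8 cells (log2 -0.12 ± 0.13), Slc2a3 28.6 ± 5.32 and 34.7 ± 4.34 CPM (-0.25 ± 0.14), and Gapdh 1008 ± 235 and 1103 ± 247 CPM (-0.08 ± 0.06; SD, n = 6 pools). None of the 3 passed the test, and Slc2a1 and Gapdh change sign when total UMIs replace TMM (0.05 and 0.08). With total UMIs as the scale, every γδ difference is higher by 0.16.

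Nearly all γδ cells (99.6%) were non-naive by the marker gate used below, whereas naive cells made up part of the CD8 class. With non-naive cells of the cluster classes alone, an alternative added after seeing the data, 9 of the 10 genes were called (48.2% of 10224 genes were called). The Hk2 difference was 4.45, Pkm 0.85, Tpi1 0.54, Pgk1 0.50, Ldha 0.45, Pfkp 0.40 and Aldoa 0.32, while Slc2a3 (-0.31, adjusted p = 0.0345) and Gapdh (-0.16, adjusted p = 0.016, edgeR) were lower in γδ cells.

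Genes of other cell types and states moved with this comparison. The summed level of 7 NK cell genes was 130 to 674 CPM in γδ cells assigned by UMIs and 32.4 to 104 CPM in CD8 cells, with 5 of 6 tested genes higher; in the γδ cluster it was 1.8 to 62.1 CPM, and Hk2 there stood at 47.9 to 117 CPM (77 ± 26, SD, n = 6). In the unnamed cluster led by Fcer1g, Ncr1 and Tyrobp, where Trdc was found in 55.7% of cells, Hk2 averaged 2.47 CPM over 4 pools. The 16 dissociation and heat shock genes summed to 9325 to 24120 CPM in γδ and 6675 to 10370 CPM in CD8 cells (12 higher, 1 lower), and of 12 cell cycle genes 11 were lower in γδ cells. The part of these lists in the γδ differences was not tested. In the γδ cluster, PS19 had the lowest dissociation and heat shock sum, 10850 CPM, with 62.1 CPM of Hk2. The highest of both were in 5XFAD-2, 26130 and 117 CPM, followed by 5XFAD-1 (21250 and 95.5 CPM) and WT-2 (19060 and 82.2 CPM). Hk2 was lower than in PS19 in WT-1 (57.5 CPM) and PS-5X (47.9 CPM), whose sums were higher, 16400 and 14420 CPM.

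Around the 10 genes, the rest of the pathway moved in parts. Of 21 other glycolysis and glucose uptake genes, 15 were tested, 6 were higher in γδ cells and 2 lower. Slc16a3, the lactate exporter MCT4, stood at 29.3 ± 6.05 CPM in γδ and 2.33 ± 0.74 CPM in CD8 cells (log2 3.70), and Pfkl, the liver-type phosphofructokinase, rose by 0.71. Slc16a1, the monocarboxylate transporter MCT1, was lower (-1.72), as was Gpi1, glucose-6-phosphate isomerase (-0.30). Of 10 tested HIF-1 targets outside the 10 genes, 4 rose, among them Ero1l, an oxidase of protein folding, at 210 ± 41.4 CPM in γδ and 28 ± 0.695 CPM in CD8 cells (2.94), and Egln3, an oxygen-sensing prolyl hydroxylase (3.00), and 3 fell (Kdm3a, P4ha1, Mxi1). Hif1a itself averaged 127 ± 40.1 CPM in γδ and 118 ± 13.1 CPM in CD8 cells and did not pass the test (0.11, adjusted p = 0.371, edgeR). Pdk1, a pyruvate dehydrogenase kinase, fell by 1.39, and Myc by 0.85.

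**Figure D1:**
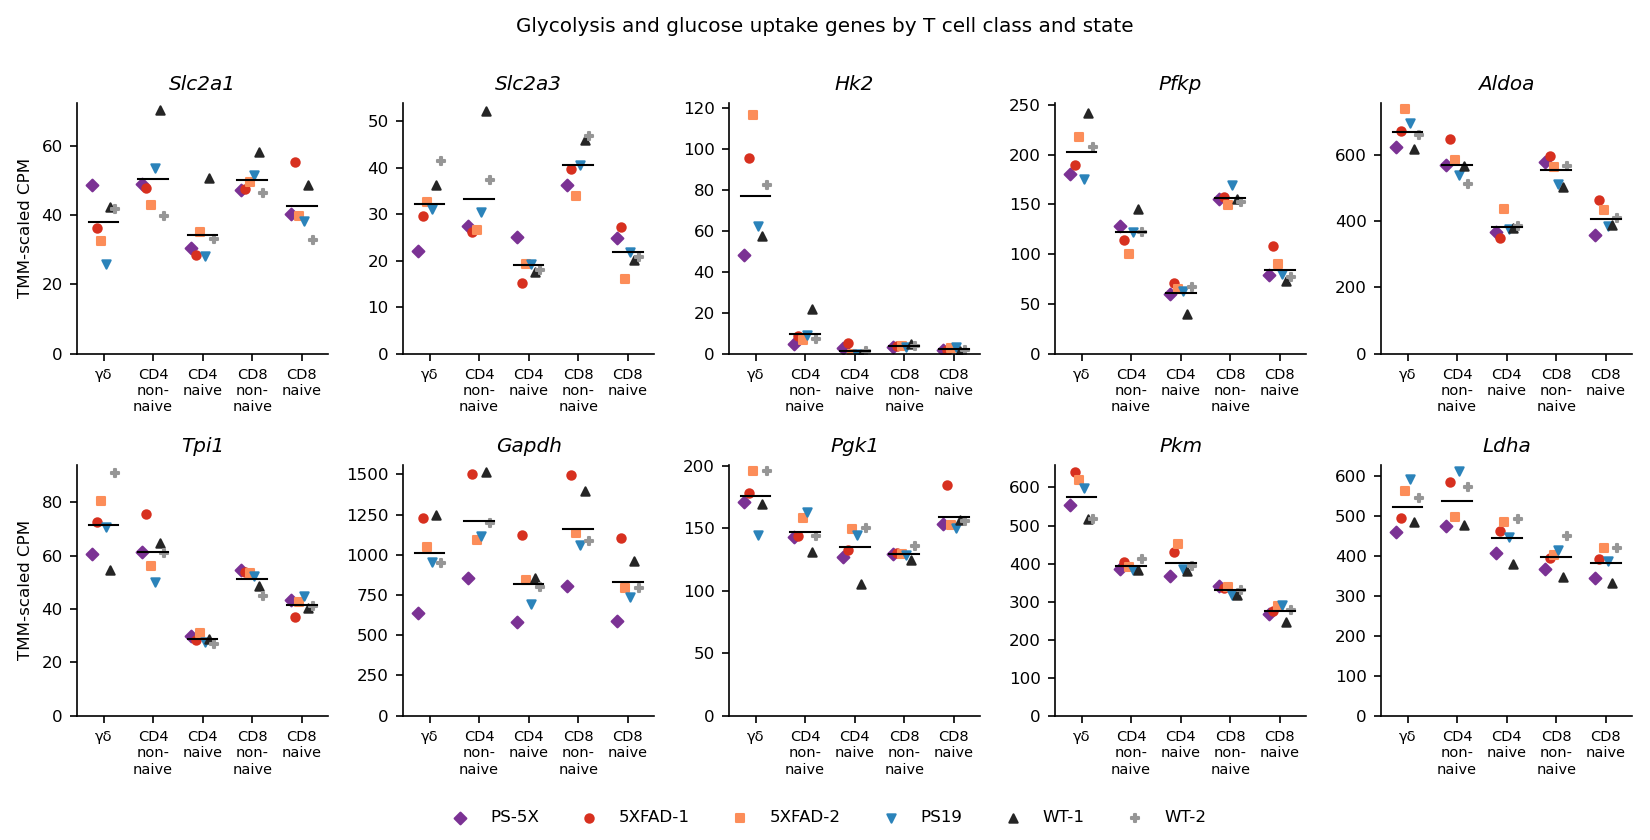
TMM-scaled CPM of each of the 10 genes (vertical axis, from 0) in γδ, CD4 non-naive, CD4 naive, CD8 non-naive and CD8 naive T cells of the cluster classes; each marker is 1 of the 6 pools and each line the mean. Hk2 stands at 47.9 to 117 CPM in γδ cells and at or under 21.6 CPM in the 4 other groups, while Gapdh spreads widely between pools in every group.

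T cells were next divided into non-naive and naive by whether more of 6 experienced genes (Cxcr6, Ccl5, Nkg7, Id2, S100a4, S100a6) or of 6 naive genes (among them Ccr7, Lef1 and Dapl1) were detected in a cell. Non-naive cells were 59.1% to 86% of CD8 cells per pool and 40.1% to 67.9% of CD4 cells. In non-naive CD8 cells 7 of the 10 genes were higher than in naive CD8 cells and 1, Pgk1, was lower (48.2% of 10827 genes were called), with a median log2 difference of 0.348, against -0.000653 for all genes. The largest rises were those of Pfkp and Slc2a3. With total UMIs as the scale, all differences are higher by 0.267 in CD8 and by 0.208 in CD4 cells.

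Pfkp stood at 156, 157, 149, 169, 155 and 152 CPM in non-naive CD8 cells of PS-5X, 5XFAD-1, 5XFAD-2, PS19, WT-1 and WT-2, against 79.3, 108, 90, 79.7, 72.9 and 76.7 CPM in naive CD8 cells. The groups did not overlap, and the difference was smallest in 5XFAD-1, which had the highest naive level (log2 0.88 ± 0.07, adjusted p = 6.07e-09, edgeR). Slc2a3 had 36.2, 39.8, 33.9, 40.5, 45.9 and 46.8 CPM in non-naive and 24.8, 27.2, 16, 21.9, 20.2 and 20.9 CPM in naive CD8 cells of the same pools. These did not overlap either (0.84 ± 0.10, adjusted p = 1.69e-06, edgeR). Slc2a1, the other transporter, rose less, by 0.25 ± 0.09 (adjusted p = 0.0227, edgeR): it averaged 50.1 ± 4.42 CPM in non-naive and 42.5 ± 8.06 CPM in naive CD8 cells (SD, n = 6), was lower in 5XFAD-1, and lost its call with DESeq2, with doublets kept (0.07), without the pool block, and without 5XFAD-2, WT-2 or PS19.

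Gapdh rose by 0.46 ± 0.04 and Aldoa by 0.43 ± 0.05 in 6 of 6 pools, with adjusted p of 5.55e-09 and 6.93e-07 (edgeR). Aldoa averaged 554 ± 37.7 CPM in non-naive and 407 ± 37.6 CPM in naive CD8 cells (SD, n = 6) without overlap. Tpi1 (0.27 ± 0.07) and Pkm (0.24 ± 0.05) also rose in 6 of 6 pools. Hk2 was at 3.65 ± 0.50 CPM in non-naive and 2.1 ± 0.77 CPM in naive cells and did not pass the test (0.62 ± 0.27, adjusted p = 0.0651, edgeR), on 1 to 12 UMIs per naive sum.

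Pgk1 and Ldha behaved differently. Pgk1, phosphoglycerate kinase, had 130, 130, 130, 129, 124 and 135 CPM in non-naive CD8 cells of the 6 pools in the same order, against 153, 185, 152, 150, 157 and 156 CPM in naive CD8 cells. Every non-naive value lay under every naive value (log2 -0.30 ± 0.05, adjusted p = 1.27e-04, edgeR), but with total UMIs as the scale the difference was -0.03 and the call was lost. Ldha averaged 396 ± 35.7 CPM in non-naive and 382 ± 36.2 CPM in naive CD8 cells (0.03 ± 0.04, adjusted p = 0.592, edgeR); with total UMIs it was called as higher, at 0.30.

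The same comparison was made in CD4 cells. Of the 10 genes, 8 were higher in non-naive than in naive CD4 cells and 0 lower (39.8% of 9433 genes were called), with a median of 0.554, against -0.00933 for all genes. Tpi1 stood at 61.5, 75.8, 56.1, 50.1, 64.7 and 61.2 CPM in non-naive CD4 cells of PS-5X, 5XFAD-1, 5XFAD-2, PS19, WT-1 and WT-2, against 29.8, 28.5, 30.9, 27.5, 28.6 and 26.9 CPM in naive CD4 cells. All non-naive values lay above all naive values (1.05 ± 0.11, adjusted p = 1.07e-08, edgeR). Hk2 was carried by 7 to 14 UMIs per non-naive sum, at 4.42, 8.7, 6.66, 8.8, 21.6 and 6.86 CPM, and by 0 to 5 UMIs per naive sum, at 2.66, 5.03, 0, 0, 0 and 1.12 CPM. WT-1 was highest among non-naive cells, the groups overlapped slightly, and the fitted value of 2.34 ± 0.52 (adjusted p = 5.61e-04, edgeR) rests on few molecules.

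Pfkp rose by 0.94 ± 0.10 and Slc2a3 by 0.65 ± 0.16 in CD4 cells, in 6 of 6 pools and without overlap, with adjusted p of 7.44e-09 and 0.0016 (edgeR). Slc2a1 rose by 0.56 ± 0.12, Aldoa by 0.55 ± 0.07, Gapdh by 0.55 ± 0.06 and Ldha by 0.25 ± 0.06, each in 6 of 6 pools. Pgk1 (0.10 ± 0.07) and Pkm (-0.04 ± 0.06) did not pass the test, and Pkm turned to 0.17 (adjusted p = 0.0358, edgeR) with total UMIs.

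The difference between the CD4 and CD8 contrasts was tested as an interaction, which called 3 of the 10 genes (7.38% of 10218 genes were called). The non-naive against naive difference was larger in CD4 than in CD8 cells by 0.80 ± 0.13 for Tpi1 (adjusted p = 1.10e-04, edgeR) and by 0.41 ± 0.09 for Pgk1 (adjusted p = 0.00256, edgeR). It was smaller by 0.28 ± 0.07 for Pkm (-0.28, adjusted p = 0.0173, edgeR), a call that was lost without 5XFAD-1 (adjusted p = 0.0767) or without 5XFAD-2 (0.0982). Hk2 (1.77 ± 0.65) and Slc2a1 (0.31 ± 0.15) did not pass, with adjusted p of 0.107 and 0.277 (edgeR).

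Other lists moved beside the 10 genes. Eno1, enolase, rose in both lineages (0.46 in CD8, 0.41 in CD4), as did Hk1, the constitutive hexokinase (0.43 and 0.51). Of the 16 other glycolysis and uptake genes tested in CD8 cells 6 rose and 2 fell, and of the 13 tested in CD4 cells 5 rose and 1 fell. Pdk1 fell to 24.5 ± 2.77 CPM in non-naive CD8 cells, against 77.5 ± 8.93 CPM in naive CD8 cells (-1.69), and to 21.2 ± 5.42 CPM in non-naive CD4 cells, against 88.7 ± 9.21 CPM in naive CD4 cells (-2.09). Txnip, which restrains glucose uptake, fell by 0.81 in CD8 and 1.16 in CD4 cells. Myc rose by 0.58 and 1.22, Hif1a by 0.43 and 1.08, and Irf4, a factor graded by receptor signal, by 2.29 and 1.97. Of 17 tricarboxylic acid cycle genes 2 rose and 2 fell in CD8 cells, and 2 rose and 1 fell in CD4 cells. The dissociation and heat shock list also moved, with 10 of 16 genes higher and 3 lower in CD8 cells and 13 higher and 1 lower in CD4 cells, as did 4 of 6 NK cell genes in CD8 cells (4 higher) and the cell cycle list (8 of 9 tested higher and 1 lower in CD8, 4 of 6 higher and 2 lower in CD4). The part of the dissociation and NK cell lists in the differences was not tested. With cycling cells left out, 8 of the 10 genes were called in CD8 cells (48.3% of 10823 genes were called). In CD4 cells 8 were called (39.8% of 9346). The cycling cluster described below had no class and was already outside these sums. This setting therefore removed only the cycling cells left in named clusters.

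**Figure D2:**
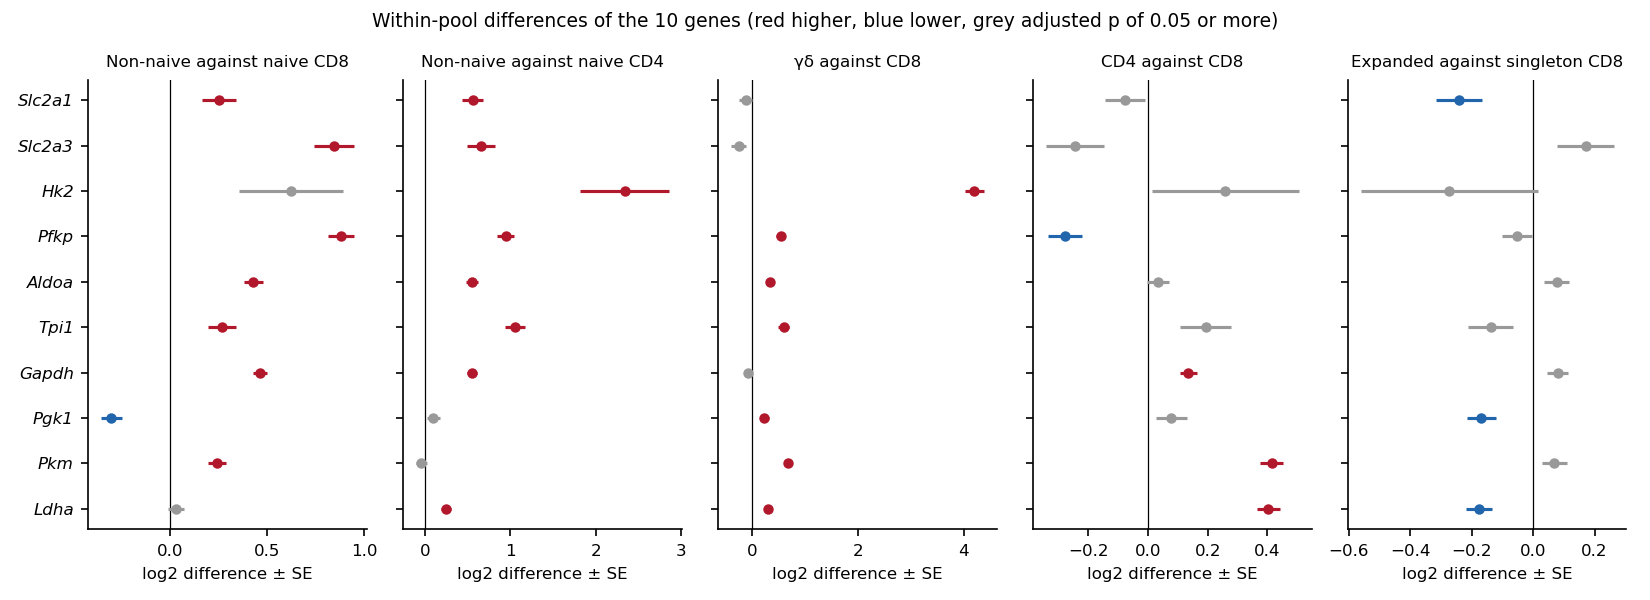
Log2 difference (horizontal axis) with its SE for each of the 10 genes in 5 comparisons made within the 6 pools by edgeR; red marks genes called as higher, blue as lower and grey those not called. Hk2 in γδ against CD8 cells, at 4.20, is the largest of all, and Pgk1 is the one gene called lower in non-naive CD8 cells.

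CD4 and CD8 T cells, assigned by UMIs and receptors, were compared next, and 3 of the 10 genes were higher in CD4 cells and 1 lower (29.7% of 10662 genes were called), with a median of 0.107, against -9.35e-05 for all genes. Pkm had 393, 421, 421, 423, 386 and 437 CPM in CD4 cells of PS-5X, 5XFAD-1, 5XFAD-2, PS19, WT-1 and WT-2, against the CD8 values of 302 to 329 CPM given above. Ldha had 456, 489, 504, 592, 464 and 578 CPM in CD4 cells, against 361, 395, 411, 415, 342 and 453 CPM in CD8 cells. Both were higher in CD4 cells in 6 of 6 pools and neither overlapped (0.41 ± 0.04 and 0.40 ± 0.04, adjusted p = 6.52e-07 and 9.65e-07, edgeR). Pfkp was lower, at 111 ± 13.5 CPM in CD4 and 136 ± 8.17 CPM in CD8 cells (SD, n = 6; -0.28 ± 0.06, adjusted p = 0.00133, edgeR), also in 6 of 6 pools.

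Gapdh was called higher in CD4 cells (0.14 ± 0.03, adjusted p = 0.00219, edgeR) in 6 of 6 pools. That call was lost with cycling cells left out (0.03) and without the pool block, and the value was -0.015 with the cluster classes; the cell cycle list summed to 729 to 1741 CPM in CD4 and 733 to 1369 CPM in CD8 cells, with 11 of 12 genes called higher in CD4 cells. With non-naive cells of the cluster classes alone, 7 of the 10 genes were called (26.4% of 10411 genes were called): Hk2 (1.16), Ldha (0.46), Tpi1 (0.28), Pkm (0.27) and Pgk1 (0.21) were higher in CD4 cells, and Pfkp (-0.35) and Slc2a3 (-0.33) lower. Among other genes, Ldhb, the lactate dehydrogenase subunit that favours pyruvate, was higher in CD4 cells (1.06), as was Hif1a, at 261 ± 39.5 CPM in CD4 and 118 ± 13.1 CPM in CD8 cells (1.18). Myc was lower (-0.81). Of 17 tricarboxylic acid cycle genes 4 were lower and 0 higher. Of 16 dissociation and heat shock genes 10 were higher in CD4 cells and 2 lower (median 0.384), and of 6 tested NK cell genes 4 were lower and 0 higher (median -1.49). The part of both lists in the CD4 and CD8 differences was not tested.

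By cluster, described without a test because clusters were drawn from these cells (with the 10 genes kept out of the clustering), clusters with a class were set beside 269 cycling cells led by Mki67 and Top2a that were left without one. Among these clusters, Gapdh, Ldha, Pgk1 and Tpi1 were highest in the cycling cells. Over the 5 pools with enough of these cells, Gapdh averaged 1993 ± 454 CPM, Ldha 621 ± 137, Pgk1 244 ± 33.1 and Tpi1 128 ± 12.3 CPM (SD), while Aldoa, at 311 ± 107 CPM, was lower than in the named clusters. Among clusters with a class, Slc2a3 was highest in the CD8 cluster led by Gzma, S1pr5, Cx3cr1 and Klrg1, at 79.2 CPM, and the Foxp3 CD4 cluster followed at 55.8 CPM. The clusters rich in naive genes had the lowest Pfkp of them, at 49.7 CPM in CD4 cells and 70.4 and 72.4 CPM in CD8 cells, and Hk2 at 0.45, 0.60 and 1.63 CPM.

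**Figure D3:**
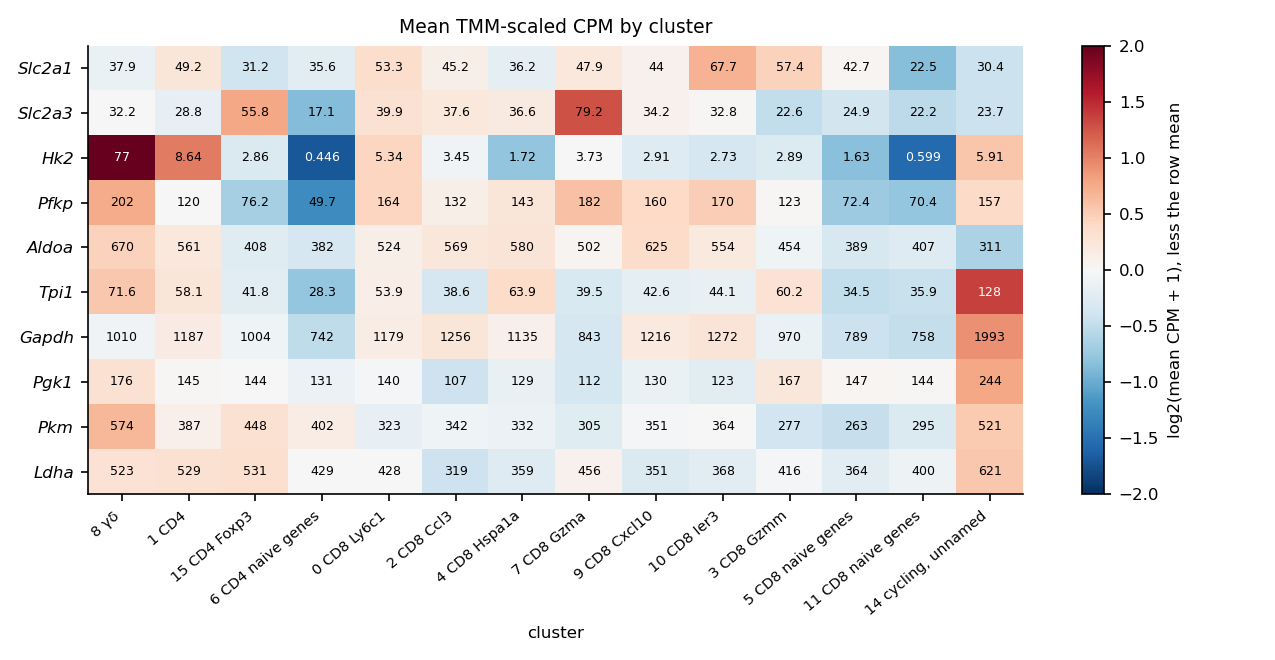
Mean TMM-scaled CPM over pools of each gene (rows) in each cluster with a class and in the cycling cluster (columns), printed in each cell; colour shows log2 of the mean CPM plus 1, less the row mean. Of the clusters shown, the γδ cluster is highest for Hk2 (77 CPM), the Gzma cluster for Slc2a3 (79.2 CPM) and the cycling cluster for Tpi1 and Gapdh (128 and 1993 CPM).

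Clone size was the number of cells of a pool with the same clonotype in the authors' contig table. Among non-naive CD8 cells, expanded cells, which shared a clonotype with at least 1 other cell of the pool, were compared with singletons: 3 of the 10 genes were lower in expanded cells and 0 higher (13% of 10215 genes were called), with a median of -0.0948, against 0.00332 for all genes. Ldha had 359, 364, 364, 386, 300.4 and 432 CPM in expanded cells of PS-5X, 5XFAD-1, 5XFAD-2, PS19, WT-1 and WT-2, against 381, 426, 451, 431, 355 and 455 CPM in singletons. It was lower in expanded cells of 6 of 6 pools, though the ranges over pools overlapped (-0.18 ± 0.04, adjusted p = 0.0042, edgeR). Pgk1 averaged 121 ± 9.48 CPM in expanded and 137 ± 4.1 CPM in singleton cells (SD, n = 6), without overlap (-0.17 ± 0.05, adjusted p = 0.018, edgeR). Slc2a1 was lower in 5 of 6 pools, all but WT-1 (-0.24 ± 0.07, adjusted p = 0.03, edgeR).

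These calls were small and unsteady. DESeq2 called 1 gene of the 10, Ldha (6.84% of all genes tested), the fit without the pool block 0 (4.33%), and the fit without PS-5X 1, again Ldha (10.3%). The Slc2a1 call was also lost without 5XFAD-1, WT-2 or PS19, and with receptors shared between pools left out, where Ldha (-0.17) and Pgk1 (-0.18) were still called. With total UMIs the differences of Ldha (-0.11), Pgk1 (-0.10) and Slc2a1 (-0.17) all lost their calls, and Gapdh (0.15), Aldoa (0.15) and Pkm (0.14) were called higher in expanded cells. The clone classes also differed in composition: NK cell genes summed to 15 to 164 CPM in expanded and 55.2 to 115 CPM in singleton cells, and 4 of 6 were lower. The 6 naive genes of the gate described above summed to 102 to 175 CPM in expanded and 396 to 542 CPM in singleton cells, and all 6 were lower (median -1.65), while 5 of the 6 experienced genes were higher (median 0.393). Of the 16 dissociation and heat shock genes 9 were higher in expanded cells and 1 lower. The part of these lists in the differences was not tested.

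Large clones of 5 or more cells were also compared with singletons, and 3 genes were lower and 1 higher (13.7% of 10022 genes were called), with a median of -0.056, against 0.00475 for all genes. Both comparisons share their singletons, so they are not independent. In singletons, clones of 2 to 4 cells and clones of 5 or more, Ldha of 5XFAD-2 stood at 451, 386 and 352 CPM and that of WT-2 at 455, 426 and 434 CPM. Pgk1 of PS-5X stood at 139, 126 and 119 CPM, and that of WT-1, with 32 cells in large clones, at 134, 112 and 79.5 CPM. Ldha (-0.22 ± 0.05), Slc2a1 (-0.28 ± 0.08) and Pgk1 (-0.21 ± 0.06) were lower in large clones in 6 of 6 pools, and Aldoa was higher in 6 of 6 (0.15 ± 0.05), with adjusted p of 0.0082, 0.0203, 0.0219 and 0.0346 (edgeR). With receptors shared between pools left out, Ldha and Pgk1 alone kept their calls among the 10, 1 gene was called without 5XFAD-1 or without PS-5X, and 2 without WT-2. In large clones, too, 5 of 5 tested naive genes and 4 of 6 NK cell genes were lower, 5 of 6 experienced genes were higher, and 8 of 16 dissociation and heat shock genes were higher and 1 lower. With total UMIs the 3 lower genes lost their calls, and Aldoa, Gapdh and Pkm were called higher in large clones (0.23, 0.20 and 0.17).

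**Figure D4:**
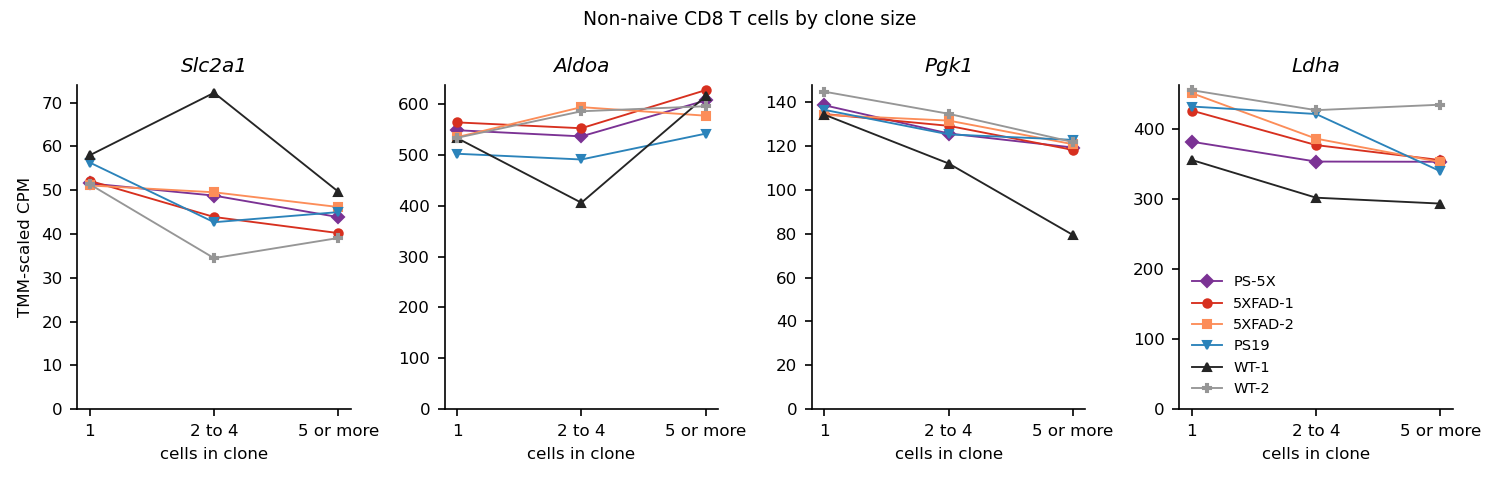
TMM-scaled CPM (vertical axis, from 0) of 4 genes in non-naive CD8 T cells of clones of 1 cell, 2 to 4 cells and 5 or more cells, 1 line per pool. Pgk1 in large clones lies under its singleton level in every pool, and WT-1, with 32 cells in large clones, strays furthest.

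In non-naive CD4 cells, 7 (WT-1) to 177 (PS-5X) expanded cells were compared with singletons. Of the 9 genes tested, Hk2 being too sparse, 0 were called (2.15% of 7497 genes were called), with a median of 0.0285, against -0.002 for all genes. Among the 9, 1 gene, Ldha, had an unadjusted p under 0.05 by edgeR (-0.24 ± 0.11), as did 863 of all genes tested. DESeq2 called 0 of the 9. Ldha was lower in 6 of 6 pools, though by almost nothing in 5XFAD-1, and Aldoa was higher in 6 of 6 (0.20 ± 0.10, adjusted p = 0.434, edgeR).

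Amyloid was tested over the 6 pools with tau as a second term: PS-5X, 5XFAD-1 and 5XFAD-2 against PS19, WT-1 and WT-2. None of the 10 genes was called in any class. Cells with receptors shared between pools stayed in the amyloid and tau fits, which were not repeated without them. In CD8 cells 0 of 11545 genes were called (0%), with 1196 at an unadjusted p under 0.05 by edgeR, 0 of them among the 10, and 77 called by DESeq2, again 0 of the 10. In CD4 cells 0.0705% of 9927 genes were called, in γδ cells 0.14% of 8583, and in non-naive CD8 cells 0.0363% of 11010; DESeq2 called 0 of the 10 genes in each. The median of the 10 was -0.0218 in CD8, 0.00352 in CD4 and -0.0452 in γδ cells, against -0.000614, 0.000495 and -0.00488 for all genes. In non-naive CD8 cells it was -0.0634, against 0.00353.

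In CD8 cells the lowest unadjusted p-values among the 10 were those of Aldoa, Tpi1, Slc2a3 and Pkm. Aldoa in CD8 cells stood at 534, 574 and 536 CPM in PS-5X, 5XFAD-1 and 5XFAD-2, against 473, 480 and 525 CPM in PS19, WT-1 and WT-2. The groups did not overlap, but the log2 difference of 0.16 ± 0.08 did not pass (adjusted p = 0.534, edgeR), and it was 0.22 within the common sequencing run and 0.03 within the separate run. Tpi1 in CD8 cells had 52.7, 52.9 and 51.9 CPM in the amyloid pools, against 50.9, 46.6 and 45.4 CPM in the others (0.14 ± 0.08, adjusted p = 0.601, edgeR), and in CD4 cells the difference was 0.28 ± 0.15 (adjusted p = 0.854, edgeR). Pkm in CD8 cells, at 328 ± 1.58 CPM with amyloid and 311 ± 8.33 CPM without, did not overlap either (SD, n = 3 pools each, adjusted p = 0.765, edgeR). How many of all genes separate in this way, 3 pools from 3, was not counted. The separation of Aldoa, Tpi1 and Pkm is therefore a description and not a sign of amyloid.

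In non-naive CD8 cells Slc2a3 stood at 36.2, 39.8 and 33.9 CPM in PS-5X, 5XFAD-1 and 5XFAD-2, against 40.5, 45.9 and 46.8 CPM in PS19, WT-1 and WT-2. The amyloid pools were all lower, PS19 lying close to 5XFAD-1. Slc2a3 was the 1 gene of the 10 with an unadjusted p under 0.05 (-0.28 ± 0.10, adjusted p = 0.361, edgeR). Of all 11010 genes tested, 1126 had such a p, a like share. The share of CD8 cells in the Slc2a3-rich Gzma cluster was 3.25%, 4.83% and 4.28% in PS-5X, 5XFAD-1 and 5XFAD-2, against 8.05%, 7.01% and 17.9% in PS19, WT-1 and WT-2; NK cell genes were also lower with amyloid in these cells (median -1.37 over 6 tested genes, 1 of them, Tyrobp, called). The part of either in the difference was not tested. Hk2 in γδ cells averaged 86.7 ± 35.2 CPM with amyloid and 67.3 ± 13.1 CPM without (0.23 ± 0.21, adjusted p = 0.988, edgeR), which does not exceed the spread between pools. Whether amyloid acts differently in CD4 and CD8 cells was tested as an interaction by edgeR, with 0 of the 10 genes called (0.237% of 10972 genes were called). None of the 10 had an unadjusted p under 0.05, against 782 of all genes tested. DESeq2 was not run on the interaction.

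Tau was tested with amyloid as the second term, with 1 pool of each tau genotype. Again 0 of the 10 genes were called in CD8 cells (0.00866% of 11545 genes were called) or CD4 cells (0.0201% of 9927), by edgeR or DESeq2. In each class 1 of the 10, Gapdh, had an unadjusted p under 0.05 by edgeR. Over all genes tested, 737 had such a p in CD8 and 551 in CD4 cells. The median of the 10 was -0.0686 in CD8 and -0.0957 in CD4 cells, against 0.00403 and -0.000287 for all genes. Gapdh in CD8 cells stood at 759.5 and 949 CPM in PS-5X and PS19, against 1429, 1063, 1296 and 1011 CPM in 5XFAD-1, 5XFAD-2, WT-1 and WT-2. In CD4 cells it stood at 758 and 888 CPM, against 1423, 1000, 1199 and 1017 CPM in the same pools. Both tau pools were below all 4 pools without tau in either class, PS-5X being lowest. The pools of the common run without tau, 5XFAD-1 and WT-1, were highest. How many of all genes separate the tau pools in this way was not counted.

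The log2 difference was -0.50 ± 0.16 in CD8 and -0.50 ± 0.15 in CD4 cells, with adjusted p of 0.717 and 0.519 (edgeR). WT and 5XFAD pools of a run carry the same replicate number, and the titles of PS19 and PS-5X carry none. With the sequencing run as a block the differences were -0.70 and -0.69 and were called (adjusted p = 0.0227 and 0.0109, edgeR). They were also called, at -0.49 in both classes, with a filter of 1 UMI. Without PS-5X the values were -0.29 and -0.33, and without 5XFAD-1 -0.38 and -0.36. Within the common run, PS-5X differed from 5XFAD-1 by -0.91 and PS19 from WT-1 by -0.45 in CD8 cells; the separate run held no tau pool. The CD4 and CD8 sums come from the same pools and are not separate evidence. In γδ cells PS19, at 952 CPM, lay level with WT-2, at 950.2 CPM, and PS-5X at 637 CPM was lowest. The dissociation and heat shock list in CD8 cells summed to 6803 and 7642 CPM in PS-5X and PS19, against 8709, 10490, 7465 and 10920 CPM in 5XFAD-1, 5XFAD-2, WT-1 and WT-2. In CD4 cells it summed to 8487 and 9816 CPM in PS-5X and PS19, against 11630, 11480, 10780 and 13370 CPM in the same pools without tau. As for Gapdh, both tau pools lay below all 4 others in CD4 cells, whereas in CD8 cells PS19 lay above WT-1. The median difference over the 16 genes was -0.432 in CD8 and -0.445 in CD4 cells, and its part in the Gapdh values was not tested. The other 9 genes differed by at most 0.16 in CD8 cells in size, and by 0.50 (Hk2) or less in CD4 cells, and none had an unadjusted p under 0.05.

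**Figure D5:**
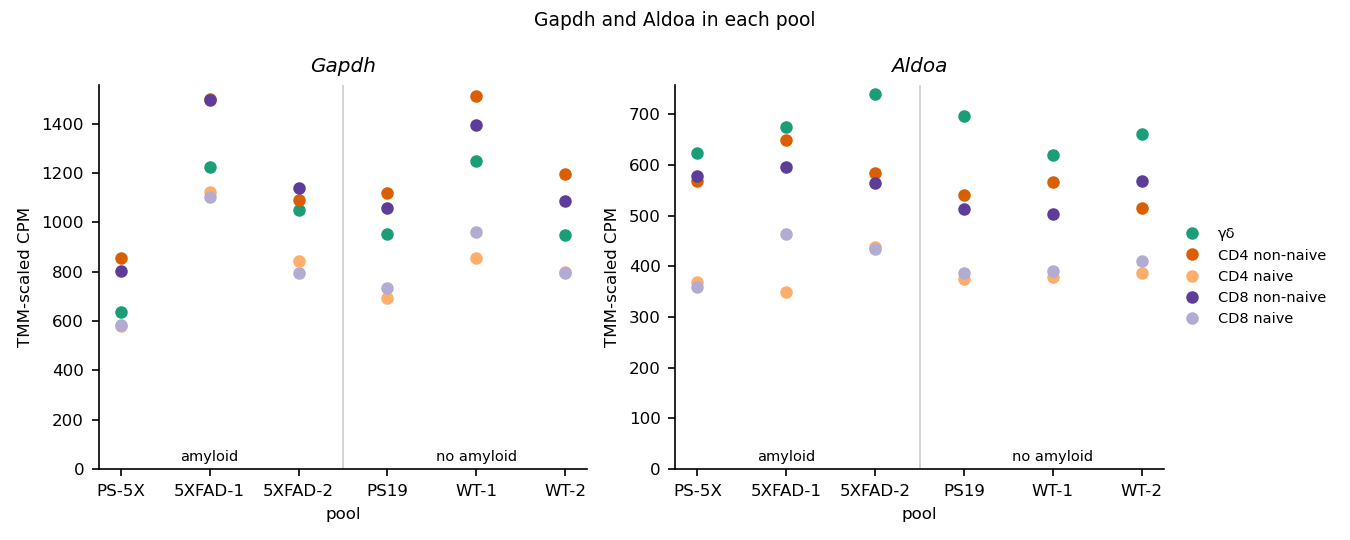
TMM-scaled CPM of Gapdh and Aldoa (vertical axes, from 0) in each pool, amyloid pools left of the line, with 1 point per class and state. Gapdh is lowest in PS-5X in all 5 groups (580 to 855 CPM), while Aldoa orders by class and state more than by pool.

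Across the 30 sums of pool by γδ, CD4 non-naive, CD4 naive, CD8 non-naive and CD8 naive cells, the mean standardized level of the 10 genes was compared with 3054 genes of at least 50 CPM. The closest were Nucb1 (r = 0.95), Prr13 (0.95), S100a11 (0.95), Ccr2 (0.95) and Cd44 (0.94). The 10 genes themselves ranged from 0.94 for Aldoa, 0.90 for Pfkp and 0.90 for Tpi1, through 0.61 for both Ldha and Gapdh, to 0.47 for Pgk1 and 0.27 for Slc2a1, each being part of the mean it was compared with. The sums share pools and libraries, so these correlations are a description of likeness over 6 pools and 5 groups.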

How the data were processed

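The deposited matrix held counts of UMIs per gene and barcode, not normalized, made by the authors with Cell Ranger 6.0.1 (named in the submitters' processing notes and, per the file headers, in the matrix); the notes name GRCm38 and mm10 without saying which step used them. The deposited receptor contig table carried another column, the authors' pool name of each contig, and each barcode suffix took its pool from it.

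Barcodes needed 500 genes or more and no more than 10% mitochondrial UMIs. Scrublet's automatic threshold marked at most 1.054% of a pool, so the highest-scoring 0.8% per 1000 barcodes were removed as doublets. Cells were clustered with scanpy 1.11.5 and leidenalg 0.10.2 at resolution 1.0 (2000 variable genes, without the metabolic genes, 30 components, 15 neighbours). Clusters were named from at least 3 markers, and the cluster led by NK cell genes was left unnamed, a choice made after seeing the data. Not every gene of the naive list is reported here. A tie between naive and experienced genes (459 CD8 and 159 CD4 cells) put a cell in neither state; 1474 CD8 and 473 CD4 cells lay within 1 gene of the boundary.

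UMIs were summed per pool and class (3778088 to 26106294 per CD8 sum, 294270 to 1599137 per γδ sum) and fitted in edgeR 4.0.16 (R 4.3.3) with its default gene filter, TMM and quasi-likelihood fits. The fit was also run on simulated data, for amyloid in CD8 cells and non-naive against naive CD8 cells alone. Those data had 1 common spread for all genes and no pool or run effects, so they do not vouch for the fits on these pools. All 10 genes passed the filter in every comparison except Hk2 in expanded CD4 cells. Amyloid and tau were 2 terms over 6 pools; comparisons within pools had the pool as a block. WT-2 and 5XFAD-2 share a replicate number and, per the labels, a sequencing run, and with that run as a block the counts of calls among the 10 genes changed for tau alone. DESeq2 1.42.0, its size factors, a filter of 1 UMI, each pool left out, doublets kept, cycling cells left out, other cell gates and clone thresholds were tried; total UMIs and the cluster classes were added after seeing the data.

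The 10 genes and the other lists were chosen with earlier results of these data known. All 10 genes are described; of the other lists, up to 4 called genes per list, direction and comparison by smallest p could be named, and outside the lists the 5 genes most like the mean of the 10. Hif1a in γδ and in non-naive CD8 cells falls outside that rule and was named after its values were seen. Pools hold several mice each, so an SD over pools is not one over mice.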

Additional observations from a re-analysis of the deposited data

Results flagged for a closer look

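Of 60 groups of 6 within-pool log2 differences, 1 for each gene and comparison, 5 had a pool far from the others; chance flags about 1 in 20 such groups. Aldoa in non-naive against naive CD8 cells was 0.69 in PS-5X, the next pool being at 0.47 and the lowest at 0.36. The other 4 were in WT-1, the pool with the fewest cells. Slc2a1 in CD4 against CD8 cells was 0.25 there, while the other 5 pools lay between -0.10 and -0.24. In expanded against singleton non-naive CD8 cells, Aldoa was -0.15 and Pgk1 -0.40 in WT-1. In large clones against singletons Pgk1 was -0.75 in WT-1, on 32 cells in large clones.

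The change between non-naive and naive cells differed between CD4 and CD8 T cells, by the interaction test of edgeR, for 3 of the 10 genes: by 0.80 for Tpi1, by 0.41 for Pgk1 and by -0.28 for Pkm, each as the CD4 difference minus the CD8 difference.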

How the results depend on the processing

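Of 1090 values of single genes under an alternative, 979 kept their direction and their side of the threshold, 58 lost a call, 32 gained one and 21 changed sign. Those that changed sign were as follows. In the amyloid comparison of γδ cells Gapdh was 0.0495 without PS-5X and 0.0416 without PS19, with pools left out in turn spanning -0.372 to 0.0495. Pkm in non-naive against naive CD4 cells was 0.17 with total UMIs and 4.27e-05 without 5XFAD-2 (-0.062 to 4.27e-05 over pools left out). In CD4 against CD8 cells Slc2a1 was 0.0142 with total UMIs and 0.0103 with non-naive cells alone, Aldoa -0.0037 with a filter of 1 UMI, Pgk1 -0.0145 without cycling cells, and Aldoa -0.0369, Gapdh -0.015 and Tpi1 -0.0397 with cluster classes. With total UMIs, Slc2a1 was 0.0457 and Gapdh 0.0791 in γδ against CD8 cells, and Pfkp 0.0158 in expanded CD8 cells. Hk2 was 0.0705 in expanded CD8 cells without PS-5X (-0.445 to 0.0705 over pools left out), and in large clones 0.149 with DESeq2, 0.0583 with total UMIs, 0.133 without cycling cells, and 0.00815, 0.146 and 0.387 without 5XFAD-1, 5XFAD-2 and PS-5X (-0.261 to 0.387). The cause was not tested.

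The number of the 10 genes called for tau was 1 in CD8 and 1 in CD4 cells with the run as a replicate block or a filter of 1 UMI, against 0 (the shares of all genes called were 0.269% and 0.302% with the block, 1.14% and 0.622% with the filter). In CD4 against CD8 cells 7 were called with total UMIs (34.7% of all genes) and 7 with non-naive cells alone (26.4%), against 4 (29.7%). In expanded CD8 cells 1 was called with DESeq2 (6.84%) and 0 without the replicate block of pools (4.33%), against 3 (13%); in large clones 2 with DESeq2 (8.98%), 1 without the block (7.35%) and 2 without shared receptors (10.2%), against 4 (13.7%). With each pool left out in turn, the count was 1 to 3 in expanded CD8 cells, 1 to 4 in large clones, 4 to 5 in CD4 against CD8, 6 to 7 in γδ against CD8, 7 to 8 in non-naive CD8, 8 to 8 in non-naive CD4, 2 to 4 in the state interaction, and 0 to 0 for amyloid, tau, the amyloid interaction and expanded CD4.

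Over all genes and alternatives, calls ranged from 0 to 502 for amyloid in CD8 (0 in the fit reported), 0 to 106 in CD4 (7), 0 to 96 in γδ (12) and 0 to 423 in non-naive CD8 (4), and from 0 to 209 for tau in CD8 (1) and 0 to 102 in CD4 (2). They ranged from 415 to 1666 in expanded CD8 (1332), 686 to 1632 in large clones (1370), 83 to 263 in expanded CD4 (161), 1796 to 3812 in CD4 against CD8 (3164), 2388 to 4380 in non-naive CD4 (3752), and 7 to 53 in the amyloid interaction (26). Depth limits the precision of Hk2, with 907 UMIs in all, and of sums of few cells.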
